A study of Homo sapiens with 4 samples.

Results

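The tripartite motif (TRIM) genes encode a large family of ubiquitin ligases, and their RNA was compared in TPC1 cells at 6 h and 24 h of exposure to the RET inhibitor BLU6864. The members were the protein-coding genes of the deposited count table whose symbol starts with TRIM followed by a digit. This rule found 73 of 20356 protein-coding genes, in a table of 20372 genes. TPC1 is a human papillary thyroid carcinoma line that carries a CCDC6-RET fusion, so that the kinase blocked by BLU6864 is the oncogene of the line. Both groups received BLU6864 in the same line, with 2 libraries after 6 h and 2 libraries after 24 h, and no library of untreated cells was analysed here. Each difference below is therefore a change between the time points under the inhibitor. The labels give the concentration as 100 microMolar, while the methods give the same figure in nM. Nothing in the labels says that the libraries of a time point came from separate cultures, so that P values measure the spread between these libraries, which may be technical. The 24 h libraries are labelled as a re-analysis, and whether they were prepared with the 6 h libraries cannot be told apart from time.

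A TRIM protein carries a RING finger, which recruits an E2 enzyme loaded with ubiquitin, followed by B-box domains and a coiled coil through which the proteins pair. The end of the protein binds the substrate and divides the family into classes, of which the PRY-SPRY class is the largest. Many TRIM genes are induced by interferon, and their products restrict viruses or tune the sensors of foreign RNA and DNA. Others act in chromatin, on microtubules, in muscle or at the centrosome.

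The libraries held 23917056 and 26829072 counts at 6 h and 26486456 and 27457040 counts at 24 h. The thyroid label was checked on marker genes. PAX8, a thyroid transcription factor, had normalized counts between 19961 and 22045 over the 4 libraries. TG, which encodes thyroglobulin, had between 97.6 and 235, while TSHR and NKX2-1 had no count in any library. Of 10 white blood cell markers, PTPRC, LYZ, CD52, TYROBP, CD3E and ITGAM had at most 8 counts in any library. The list summed to between 4662 and 4878 normalized counts at 6 h and between 2685 and 2758 at 24 h, nearly all of it CD68, a lysosomal protein. CD14 of the same list went the other way, from 50.7 and 39.3 normalized counts at 6 h to 84.7 and 88.6 at 24 h. Of 3 endothelial markers in the table CDH5 had at most 1 count, while KDR, a growth factor receptor, gave 524 and 496 normalized counts at 6 h and 43.8 and 21.4 at 24 h. The part of these differences in the results below was not tested.

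Of the 73 TRIM genes, 19 had no count in any library and 6 had counts too low to be tested. The 19 included TRIM34, TRIM72, the TRIM49 and TRIM64 copies and the read-through genes TRIM6-TRIM34 and TRIM39-RPP21. The 6 were TRIM29, TRIM31, TRIM50, TRIM54, TRIM63 and TRIM67, with TRIM67 the highest at 8 counts in 24 h library 2. The other 48 passed the low-count filter. Of these, TRIM71 and TRIM74 reached 10 counts only at 24 h and TRIM17 only at 6 h, so that a difference was built into their selection.

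As a whole the family was more abundant at 24 h. Normalized counts (counts put on a common library size with TMM factors) summed over the 73 genes to 47670 and 46809 at 6 h and to 57921 and 57472 at 24 h, a ratio of the means of 1.22. The TRIM genes took 0.185% and 0.182% of all counts at 6 h and 0.219% and 0.215% at 24 h. A bulk measurement cannot tell a change in RNA per cell from a change in the share of cells that make it.

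In the quasi-likelihood test of edgeR, at a Benjamini-Hochberg adjusted P under 0.05, 25 of the 48 tested TRIM genes rose (52.1%), against 33.0% of all genes tested. By the same test 12 fell (25%), against 32.6% of all genes, and 11 passed in neither direction. The methods call falls at a P below 0.01 and a log2 fold change below -0.5. With that P taken as unadjusted and the same cutoff used for rises, 12 TRIM genes rose (25%) beside 17.4% of all genes, and 5 fell (10.4%) beside 17.7% of all genes. The median log2 fold change was 0.25 over the TRIM genes and 0.0029 over all genes tested. Most changes were small, as 30 of the 48 lay within 0.5 of 0 on the log2 scale. The libraries of the time points did not overlap for 41 of the 48 (85.4%), close to the 81.8% of all genes, so that this separation is not a property of the TRIM genes.

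**Figure D1:**
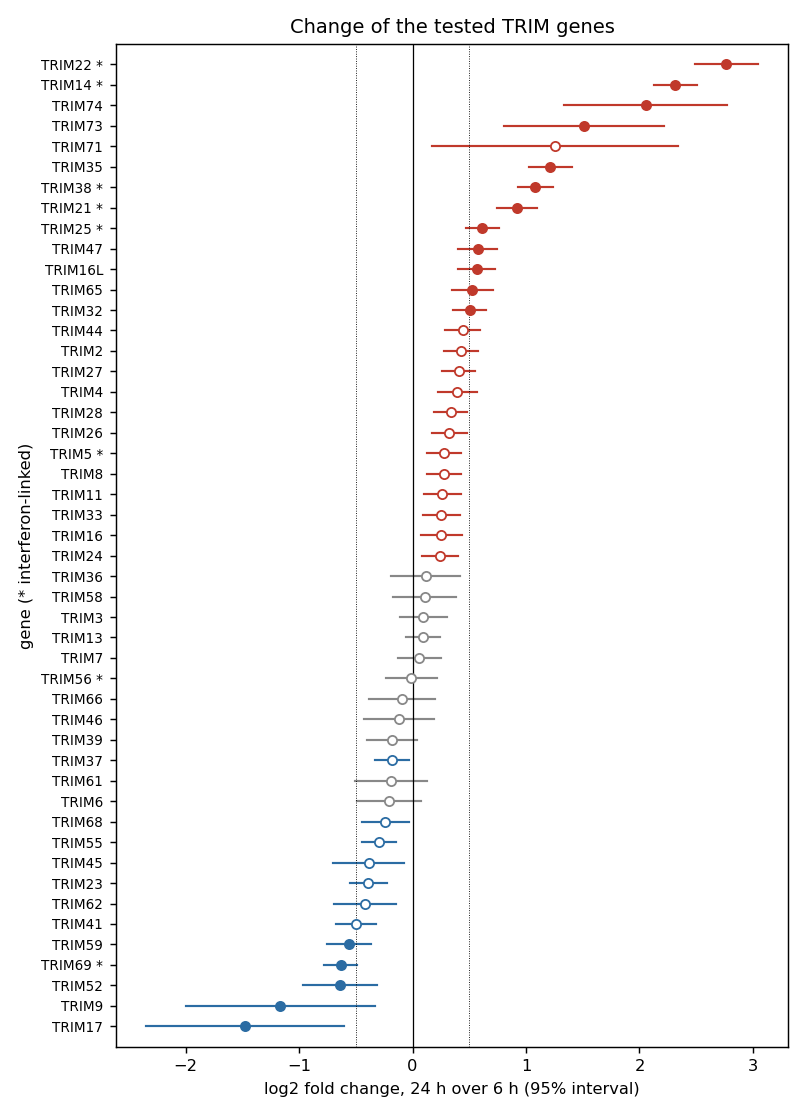
Log2 fold change at 24 h over 6 h (x axis) of the 48 tested TRIM genes (y axis, ordered by change), with 95% intervals from edgeR. Red is higher and blue lower by adjusted P, grey is neither, filled points pass the cutoffs, and dotted lines mark 0.5 and -0.5. TRIM22, TRIM14 and TRIM74 stand above 2, and most other genes lie close to 0.

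The largest rises of the family, those of TRIM22 and TRIM14, were in interferon-linked members. A list of 9 TRIM genes known to respond to interferon was used, of which 8 were tested and TRIM34 had no count. The list was chosen with earlier results of these data known, so that its contrast with the other members is a description only. Of the 8, 6 rose by adjusted P (TRIM22, TRIM14, TRIM38, TRIM21, TRIM25 and TRIM5), TRIM69 fell and TRIM56 passed in neither direction. Over all genes tested 33.0% rose and 32.6% fell. Their median log2 fold change was 0.77, beside 0.11 over the other 40 tested TRIM genes, of which 19 rose and 11 fell. The 9 genes summed to 11559 and 11253 normalized counts at 6 h and to 18306 and 17562 at 24 h, a ratio of 1.57. The other 64 TRIM genes summed to 36111 and 35556 at 6 h and to 39615 and 39909 at 24 h, a ratio of 1.11. So 6528 of the 10457 normalized counts by which the family mean increased came from these 9 genes.

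The promoters given for TRIM genes were searched on both strands for the core of the interferon-stimulated response element, spelled GAAA, any 2 bases and GAAA again. RefSeq promoters on GRCh38.p14, from 250 bases before to 50 bases after the start, were given for 58 of the 73 TRIM genes, and 10 of the 58 held a match (17.2%). Of all 15843 protein-coding promoters 503 held one (3.18%). Among the tested genes with a promoter 8 of 36 held it (22.2%), namely TRIM2, TRIM5, TRIM14, TRIM16, TRIM21, TRIM26, TRIM44 and TRIM69. A match was held by 2 of the 9 searched genes that rose past the cutoffs, also 22.2%. The matches in tested interferon-linked genes are shown because these genes changed in opposite directions with the same motif. Each sequence is written along the gene's own strand, and capitals mark the motif or its reverse complement, TTTC, any 2 bases and TTTC.
TRIM14, chr9:98119223-98119273, minus strand, bases -51 to -1 from the start: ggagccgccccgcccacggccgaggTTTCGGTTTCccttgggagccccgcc
TRIM21, chr11:4393663-4393692, minus strand, bases 11 to 40: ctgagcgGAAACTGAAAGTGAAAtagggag
TRIM5, chr11:5685075-5685126, minus strand, bases -52 to -1: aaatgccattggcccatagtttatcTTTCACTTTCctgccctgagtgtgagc
TRIM69, chr15:44736441-44736500, plus strand, bases -87 to -28: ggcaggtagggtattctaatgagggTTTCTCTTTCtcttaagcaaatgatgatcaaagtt
TRIM21 held 2 overlapping matches and the other 3 genes held 1 each. TRIM14, TRIM21 and TRIM5 rose, while TRIM69, with a match of the same form, fell. TRIM38 and TRIM25 rose with no match in this window, and TRIM22 was not searched. A match is a run of letters and says nothing of whether a factor bound there.

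TRIM22 (ENSG00000132274), a nuclear and cytoplasmic ligase that restricts several viruses, had the largest change of the family. Its normalized counts were 60.5 and 74.8 at 6 h and 473 and 453 at 24 h. Both 24 h libraries lay far above both 6 h libraries. The log2 fold change was 2.76 (SE 0.136, adjusted P = 7.15e-16 by edgeR), a 6.8-fold rise. The gene lies at chr11:5710919-5758319 on hg19, inside the span the table gives to TRIM5 (chr11:5684425-5959849). TRIM5, which binds the capsid of incoming retroviruses, gave 1335 and 1322 at 6 h and 1668 and 1555 at 24 h, again without overlap. The TRIM5 change of 0.28 on the log2 scale (SE 0.0717, adjusted P = 0.00138 by edgeR) was small beside that of its neighbour. The genes lie on opposite strands and share no exon in GENCODE 44, and the exons of the table's own annotation were not compared.

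TRIM14 (ENSG00000106785, chr9:100831557-100881494 on hg19) lacks a RING finger and serves as an adaptor in the sensing of viral RNA and DNA. It gave 258 and 241 normalized counts at 6 h and 1230.4 and 1251 at 24 h. The libraries of each time point lay close together, and the groups were far apart. The log2 fold change was 2.32 (SE 0.0913, adjusted P = 6.03e-18 by edgeR), a 4.98-fold rise. TRIM14 shares 13801 bases of its span with NANS on the opposite strand, and NANS had a log2 fold change of 0.37.

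TRIM38 (ENSG00000112343), which curbs inflammatory signalling and modifies the DNA sensor cGAS, gave 2427 and 2209 at 6 h and 5131 and 4674 at 24 h. The time points did not overlap, and the log2 fold change was 1.08 (SE 0.0756, adjusted P = 1.37e-12 by edgeR). TRIM21 (ENSG00000132109), the cytosolic antibody receptor known as the Ro52 autoantigen, gave 542 and 522 at 6 h and 1065 and 949.8 at 24 h. It rose without overlap, by 0.92 on the log2 scale (SE 0.0865, adjusted P = 5.17e-10 by edgeR). TRIM25 (ENSG00000121060), which ubiquitinates the RNA sensor RIG-I and works with the antiviral protein ZAP, gave 4762 and 4574 at 6 h and 7181 and 7129 at 24 h. The change of 0.62 on the log2 scale (SE 0.0713, adjusted P = 2.50e-08 by edgeR) was the smallest of the 5 interferon-linked genes that rose past the cutoffs. Because TRIM25 was already abundant, its mean difference in counts was among the largest, and its share of all TRIM counts went from 9.99% and 9.77% to 12.4% in each 24 h library.

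TRIM56, a ligase of the cytosol that acts against RNA viruses, showed no detectable change. Its normalized counts were 288 and 322 at 6 h and 296 and 311 at 24 h, and the groups overlapped. The log2 fold change was -0.01 with a 95% interval from -0.23 to 0.21. TRIM69 (ENSG00000185880, chr15:45021186-45060027 on hg19), a ligase that restricts vesicular stomatitis virus, went the other way. It gave 1887 and 1987 at 6 h and 1261 and 1239 at 24 h, with both 24 h libraries lower. The log2 fold change was -0.63 (SE 0.071, adjusted P = 1.47e-08 by edgeR).

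**Figure D2:**
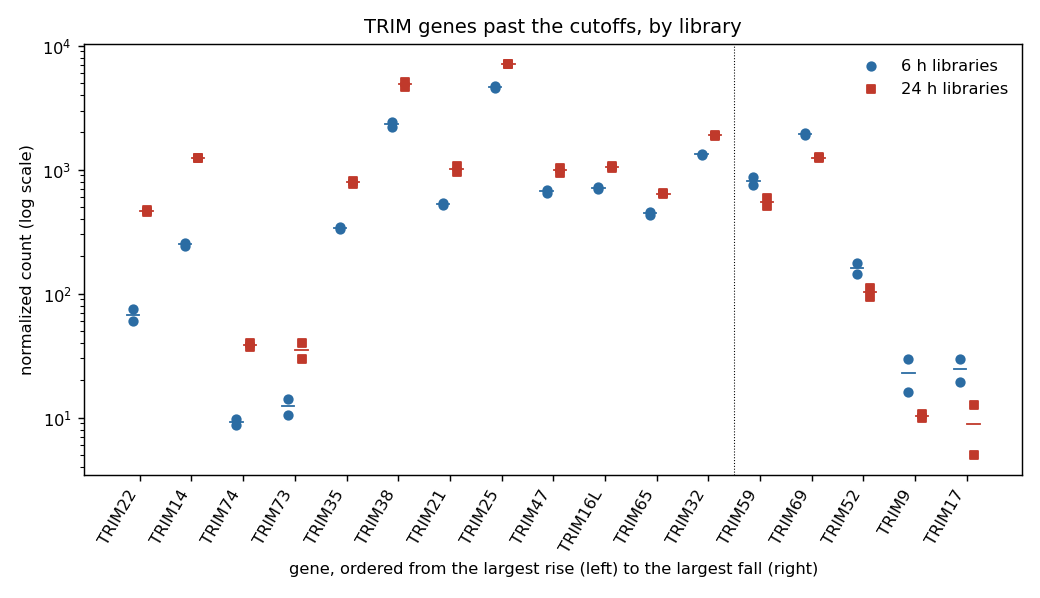
Normalized count (y axis, log scale) of the 17 TRIM genes past the cutoffs in each library, with blue circles for 6 h, red squares for 24 h and bars at the mean of 2 libraries. The 12 genes left of the dotted line rose and the 5 right of it fell, and no gene's time points overlap.

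Outside the interferon list 7 TRIM genes rose past the cutoffs. TRIM35 (ENSG00000104228), a PRY-SPRY ligase known to bind pyruvate kinase M, gave 348 and 335 at 6 h and 772 and 809.7 at 24 h. The change of 1.21 on the log2 scale (SE 0.0913, adjusted P = 6.13e-12 by edgeR) exceeded that of TRIM38. TRIM47 (ENSG00000132481) gave 651 and 682 at 6 h and 947 and 1037 at 24 h, and TRIM65 (ENSG00000141569), which ubiquitinates the RNA sensor MDA5, gave 431 and 457 against 647 and 634. These genes are neighbours at chr17:73870242-73874656 and chr17:73876416-73893084 on hg19, and they rose by similar amounts, 0.57 (SE 0.083) and 0.53 (SE 0.09) on the log2 scale, with adjusted P of 1.05e-06 and 1.17e-05 by edgeR. TRIM32, an NHL-repeat ligase mutated in a limb-girdle muscular dystrophy, gave 1343 and 1321 at 6 h and 1872 and 1908 at 24 h, a rise of 0.51 on the log2 scale (adjusted P = 5.53e-07 by edgeR). TRIM65 and TRIM32 lay just past the fold cutoff and fell below it, at 0.49 and 0.46, when counts were scaled by library size alone. TRIM65 also fell below it without 6 h library 1, at 0.487. So did TRIM32 without 24 h library 2, at 0.498, and without 6 h library 2, at 0.489.

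The remaining genes past the cutoffs were near copies of other genes. TRIM16L (ENSG00000108448), a partial copy of TRIM16 without its N-terminal domains, gave 693 and 719.5 at 6 h and 1071 and 1022 at 24 h. It rose by 0.57 on the log2 scale (SE 0.0801, adjusted P = 7.44e-07 by edgeR). TRIM16, which acts in the autophagy of damaged endosomes, rose by 0.25 (adjusted P = 0.0132 by edgeR), and 57.6% of the 50-base words of its transcript occur in other genes, TRIM16L included. TRIM73 and TRIM74, short copies of TRIM50, gave 14.0 and 10.6 and 9.72 and 8.63 at 6 h, and 29.9 and 39.9 and 39.9 and 37.0 at 24 h. Their log2 fold changes were 1.51 and 2.06, but 85.8% and 92.3% of their 50-base words occur in other genes, mainly each other and TRIM50, so that the assignment of reads between them is uncertain. TRIM50 itself had at most 2 counts in any library.

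The other falls past the cutoffs concerned less abundant genes. TRIM59 (ENSG00000213186), a membrane-anchored ligase, gave 870.1 and 756 at 6 h and 509 and 589.7 at 24 h, and it fell by 0.56 on the log2 scale (SE 0.0937, adjusted P = 8.57e-06 by edgeR). Its span shares 2518 bases with SMC4, a condensin subunit read from the opposite strand, which had a log2 fold change of -1.90. Because the strand setting of the counting is not given in the sources used here, reads of TRIM59 and SMC4 cannot be told apart in the shared bases. TRIM52 gave 176 and 145 at 6 h and 112 and 93.4 at 24 h without overlap, for a log2 fold change of -0.64 (SE 0.157, adjusted P = 0.000873 by edgeR). TRIM9, a neuronal ligase bound to microtubules, had 16.2 and 29.7 at 6 h and 9.96 and 10.7 at 24 h, and TRIM17 had 19.4 and 29.7 at 6 h and 4.98 and 12.7 at 24 h. They changed by -1.16 and -1.48 on the log2 scale, the most negative values of the family, but these rested on few counts. Both lost the call under DESeq2. When single libraries were left out, TRIM59 ranged from -0.67 to -0.45 on the log2 scale. It fell short of the fold cutoff without 24 h library 1 and without 6 h library 1. TRIM52 ranged from -0.78 to -0.501, and it did not pass the cutoffs without 6 h library 1. The number of falls past the cutoffs was 2 without 24 h library 1 and 3 without 6 h library 2.

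The members are grouped below by the domains at the end of the protein, and differences between these classes were not tested. Genes without a RING finger were set apart as a group of their own, whatever their end. They are therefore not counted in the PRY-SPRY class or any other class, and the counts below depend on this choice. By adjusted P 52.1% of the tested TRIM genes rose and 25% fell, beside 33.0% and 32.6% of all genes tested. In the PRY-SPRY class 12 of 21 tested genes rose by adjusted P and 5 fell, close to the shares of the family. The class had a median log2 fold change of 0.28. The table holds 39 genes of the class, and those not tested had at most 2 counts in any library. Of these, TRIM49 and TRIM64B share 85.4% and 85.1% of their 50-base words with other genes, while TRIM10 and TRIM15 share 0%. How reads of such copies were counted is not known, so that a count of 0 does not show that a copy was silent. Of the genes without a RING finger, TRIM14, TRIM16, TRIM16L and TRIM44, all 4 tested rose, with a median of 0.50. Of the NHL-repeat genes TRIM2, TRIM32 and TRIM71 rose, while TRIM3 had a log2 fold change of 0.10 (95% interval -0.11 to 0.30). TRIM71, a stem cell RNA regulator, had only 6.48 and 3.84 at 6 h and 13 and 11.7 at 24 h, and its adjusted P of 0.0394 by edgeR rose above 0.05 when any of the 4 libraries was left out.

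The PHD and bromodomain class consists of chromatin regulators, and 3 of its 4 genes rose by a small amount. TRIM28, the corepressor that KRAB zinc finger proteins recruit to DNA, gave 5114 and 5083 at 6 h and 6254 and 6612 at 24 h, with a change of 0.34 on the log2 scale (SE 0.0714, adjusted P = 0.000195 by edgeR). TRIM33, which acts in TGF-beta signalling, gave 1064 and 956 at 6 h and 1172 and 1234 at 24 h, a change of 0.25 (SE 0.0781, adjusted P = 0.00608 by edgeR). Neither gene's groups overlapped. TRIM24, a reader of histone marks and coregulator of nuclear receptors, gave 1480.0 and 1270.2 at 6 h and 1636 and 1618 at 24 h. Its change was 0.24 (SE 0.0764, adjusted P = 0.00678 by edgeR), and 6 h library 1 stood nearer to the 24 h libraries than 6 h library 2. TRIM66, a germ cell relative, gave 179 and 257 at 6 h and 200.3 and 211 at 24 h, overlapping, with a log2 fold change of -0.09 (95% interval -0.38 to 0.20). TRIM24, TRIM27 and TRIM33 are known as fusion partners of RET in thyroid and other tumours, a grouping made after their values were seen. All 3 passed the test, but without 6 h library 2 the call was lost for TRIM24, at 0.13 on the log2 scale (adjusted P = 0.202 by edgeR), and for TRIM33, at 0.17 (adjusted P = 0.121 by edgeR). TRIM27 had the largest change of them, 0.41 on the log2 scale, from 1397 and 1384 at 6 h to 1885 and 1800.3 at 24 h.

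In 3 classes, with 1, 3 and 5 tested genes, none rose by adjusted P, beside 52.1% of all tested TRIM genes. The class with a COS box but no SPRY had TRIM55 as its only tested gene, described below. Of the microtubule-binding COS-box genes with SPRY, TRIM9 fell, while TRIM36 at 0.12 and TRIM46 at -0.12 on the log2 scale passed in neither direction. Of 5 genes with MATH, ARF, filamin or transmembrane ends, TRIM23, TRIM37, TRIM45 and TRIM59 fell and TRIM13 passed in neither direction, with a class median of -0.39. TRIM37, which limits the assembly of centrosomes, gave 2714 and 2563 at 6 h and 2459 and 2192 at 24 h. Its groups did not overlap, but the change of -0.18 (SE 0.0738, adjusted P = 0.0331 by edgeR) was the smallest that passed. The call was lost under DESeq2, with upper quartile scaling and without 6 h library 1, and also without 24 h library 2, where the change was -0.09 (adjusted P = 0.379 by edgeR). TRIM23, whose ARF domain binds GTP, fell by 0.39 on the log2 scale (adjusted P = 0.00016 by edgeR) and shares 1260 bases of its span with TRAPPC13, at -0.84.

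**Figure D3:**
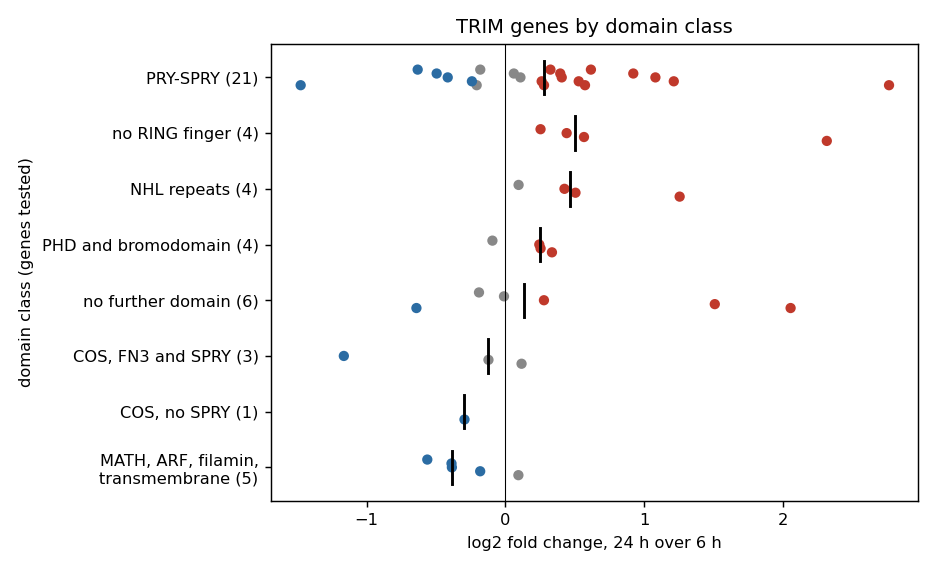
Log2 fold change at 24 h over 6 h (x axis) of each tested TRIM gene by domain class (y axis, number of genes tested in brackets). Red points rose and blue points fell by adjusted P, grey points are neither, and black bars are class medians, from 0.50 without a RING finger to -0.39 in the lowest class.

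Levels of different genes were compared as normalized counts per kilobase of the longest coding transcript, which was known for 72 of the 73 genes. At 6 h the highest level was that of TRIM55, at 2205 and 2160 per kilobase, followed by TRIM28 at 1520.1 and 1511. The libraries of these genes did not overlap at 6 h. TRIM25, TRIM69 and TRIM37 followed at means of 813, 779 and 588 per kilobase, and neither TRIM25 and TRIM69 nor TRIM37 and TRIM8 could be ordered at that time, as their libraries overlapped. TRIM55 belongs to the muscle RING finger proteins, which bind the sarcomere, and its relatives TRIM54 and TRIM63 had at most 1 count in any library. At 24 h TRIM28, at 1859 and 1966, and TRIM55, at 1873 and 1684, overlapped and could not be ordered. TRIM25 was next, at 1250.0 and 1241, followed by TRIM8 and TRIM27 at means of 693 and 622 per kilobase. Divided by coding length instead, TRIM25 was the highest gene at 24 h and TRIM55 again at 6 h. By that measure TRIM38 moved from the 14th to the 4th place at 6 h and TRIM37 from the 5th to the 9th.

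TRIM55 fell by adjusted P. Its normalized counts were 5907 and 5786 at 6 h and 5018 and 4512 at 24 h, without overlap. The log2 fold change was -0.30 (SE 0.0734, adjusted P = 0.000998 by edgeR). Without 24 h library 2 the change was -0.21 and the call was lost (adjusted P = 0.0572 by edgeR). It made up 12.4% of all TRIM counts in each 6 h library, and 8.66% and 7.85% at 24 h. TRIM22 moved from the 41st to the 25th place per kilobase and TRIM14 from the 33rd to the 14th.

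**Figure D4:**
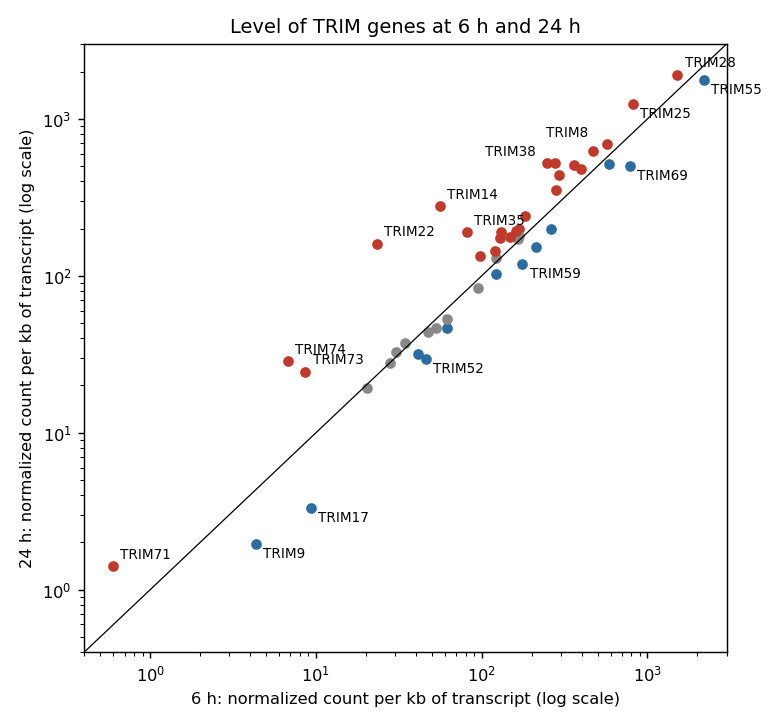
Mean normalized count per kilobase of the longest coding transcript at 6 h (x axis, log scale) against 24 h (y axis, log scale) for the tested TRIM genes with a known length. Points above the diagonal were higher at 24 h, and red, blue and grey mark rise, fall and neither by adjusted P. TRIM55 and TRIM28 are at the top, and TRIM22 and TRIM14 lie farthest above the line among genes over 10 per kilobase at 6 h.

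Genes that act with TRIM proteins were counted in the same test, and no list was tested as a set. By adjusted P 33.0% of all genes tested rose and 32.6% fell. Of 7 family members with other symbols 5 were tested. MEFV, which encodes the inflammasome protein pyrin, gave 225 and 233 at 6 h but 44.8 and 33.1 at 24 h (log2 fold change -2.55). The microtubule ligase MID1 fell less, by 1.81 on the log2 scale, whereas its paralog MID2 rose by 0.63 and PML, the organizer of nuclear bodies, by 0.36. TRIML2 fell by 1.37 on the log2 scale but had at most 13.4 normalized counts. The number of relatives that fell went from 3 to 2 under DESeq2, under both other low-count filters and without any of the 4 libraries.

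Of 13 E2 enzymes and cofactors 7 fell by adjusted P and 2 rose, with a median log2 fold change of -0.24. Over all genes tested 32.6% fell and 33.0% rose. UBE2L6, the E2 of the interferon-induced modifier ISG15, rose by 0.63 (1377 and 1395 at 6 h, 2114 and 2185 at 24 h), and UBE2D4 rose by 0.55. UBE2E1 had the largest fall, 0.59 on the log2 scale, followed by UBE2W. The most abundant E2 of the list, UBE2D3, fell by 0.42, from 12007 and 11921 to 8933 and 8983.

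Of 10 genes of the interferon receptor pathway 5 rose and 4 fell by adjusted P, with a median log2 fold change of 0.23. Over all genes tested 33.0% rose and 32.6% fell. The receptor chains IFNAR1 and IFNAR2 fell by 0.74 and 0.78 on the log2 scale, and the feedback inhibitor SOCS1 fell by 1.86. The transcription factors STAT2 and IRF9 rose by 0.55 and 0.74, the kinase JAK1 by 0.71 and the feedback protease USP18 by 1.57. Of 11 tested genes of RNA and DNA sensing 4 rose and 2 fell, with a median of 0.0038. The share that rose was close to the 33.0% of all genes tested. IRF7 rose by 1.35, IFIH1 (MDA5, the target of TRIM65) by 0.83, DDX58 (RIG-I, the target of TRIM25) by 0.52 and ZC3HAV1 (ZAP) by 0.44. The kinase TBK1 fell by 0.63 on the log2 scale.

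Among 10 TRIM28 partners MORC2 and the histone methyltransferase SETDB1 rose by 0.80 and 0.38, and the HP1 proteins CBX3 and CBX5 fell by 0.55 and 0.46 on the log2 scale. The other 6 passed in neither direction, and the median was -0.085. All 6 centriole duplication genes set beside TRIM37 fell, from -0.57 for CEP192 to -3.68 for PLK4, the kinase that starts duplication, with a median of -2.20. PLK4 gave 1273 and 1254 at 6 h and 97.6 and 99.3 at 24 h, a far larger difference than that of TRIM37.

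**Figure D5:**
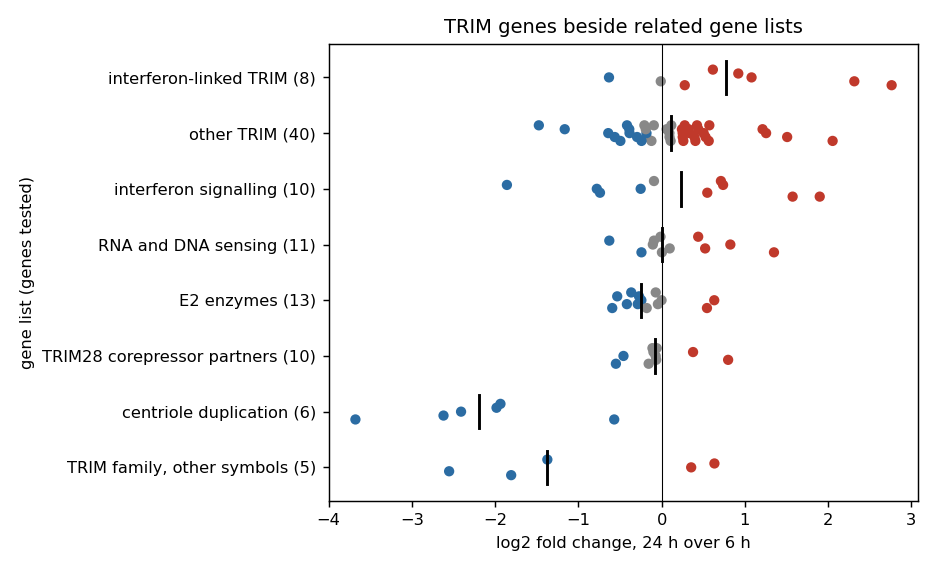
Log2 fold change at 24 h over 6 h (x axis) of the tested genes of each list (y axis, number tested in brackets). Red points rose and blue points fell by adjusted P, grey points are neither, and black bars are medians. The interferon-linked TRIM genes have the highest median, 0.77, and the 6 centriole genes the lowest, -2.20.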

How the data were processed

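RNA from TPC1 cells was sequenced in 2 libraries after 6 h and 2 after 24 h with BLU6864. The labels name STAR 2.3 and hg19, whereas the methods name a later STAR release. The counting program and its strand setting are not given in the sources used here. The authors deposited raw counts per gene. The table also holds a normalized signal deposited by the authors, the count divided by a size factor, and their comparison of the time points as deposited log2 fold changes, a test score and p-values, none of which were used. Within each time point the libraries were not the same library deposited again, as their counts spread beyond sampling (chi-square over degrees of freedom, 10.3 at 6 h and 7.87 at 24 h across all genes, 2.27 and 3.45 across TRIM genes). This does not show that they are separate cultures. No column of another sample was present (0 columns).

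The test ran on raw counts of the whole table in edgeR 4.0.16 (R 4.3.3). The filterByExpr function (minimum count 10) kept 12876 genes, 4039 had no count, and TMM scaling and the quasi-likelihood test were used with time as the factor. Adjusted P values are Benjamini-Hochberg values over all 12876 genes. Standard errors came from the fold change and the F statistic, and the biological coefficient of variation was 0.0521. Intervals are at 95%. With 100 genes changed by 1 and 100 by 0.5 on the log2 scale in simulated data, edgeR recovered 94% and 80% over 12752 genes. DESeq2 recovered 88% and 66%. The simulation gave all genes the same dispersion and changed far fewer genes than passed in the real data. These rates therefore do not give the recovery of the real test.

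The members and the gene lists were chosen with earlier results of these data known. Genes past the cutoffs were named, with full values for the 8 largest rises and falls with a mean normalized count of at least 50, along with the tested interferon-linked and PHD and bromodomain genes, the 5 highest levels at each time, related genes past the cutoffs or most changed in their list, and genes with near copies or overlaps. Gene lengths, overlaps and 50-base words were taken from GENCODE 44 on hg38, matched by Ensembl identifier. Positions of genes are on hg19, as in the table, and promoters are RefSeq sequences on GRCh38.p14. The tested genes without a promoter there were TRIM11, TRIM13, TRIM16L, TRIM22, TRIM24, TRIM27, TRIM28, TRIM35, TRIM4, TRIM45, TRIM55 and TRIM8. Alternatives were DESeq2 1.42.0, other scalings, filters and thresholds, a replicate block and leaving out each library. Values of some listed genes are not reported here. Python 3.11.15 and matplotlib 3.10.9 were used for the plots.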

Additional observations from a re-analysis of the deposited data

How the results depend on the processing

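Over 477 pairs of a tested TRIM gene and an alternative, 435 kept their direction and call, 35 lost the call and 1 gained it. The fold changed sign in the other 6, all of genes that passed in neither direction. These were TRIM56 at 0.019 with upper quartile scaling and, over the fits that leave out a library, TRIM56 (-0.087 to 0.071), TRIM36 (-0.033 to 0.267), TRIM66 (-0.322 to 0.195) and TRIM46 (-0.254 to 0.030). Of the 37 genes past the adjusted P, 24 passed in all 10 alternatives, TRIM74 in the 9 that tested it, and 12 were lost in at least 1, namely TRIM71, TRIM11, TRIM33, TRIM16, TRIM24, TRIM37, TRIM68, TRIM55, TRIM45, TRIM62, TRIM9 and TRIM17. With DESeq2 the falls dropped from 5 to 3 at the cutoffs and from 12 to 6 by adjusted P, and RNA and DNA sensing genes that fell went from 2 to 1. The latter count was also 1 with upper quartile scaling and with at least 10 counts in every library. Leaving out each library in turn gave 2 to 6 falls at the cutoffs, with 2 without 24 h library 1 and 3 without 6 h library 2, and 1 to 2 sensing genes that fell. Rises at the cutoffs ranged from 11 to 12 and the falls by adjusted P from 8 to 11. Scaling by library size alone moved the median of all genes to -0.040 and gave 10 rises and 6 falls at the cutoffs, and the upper quartile moved it to 0.033. With the replicate number as a block 12 TRIM genes rose and 5 fell at the cutoffs, as without it. The same-numbered libraries had a correlation of deviations of 0.0691 over 12876 genes, and no source says that the numbers pair them. With 2 libraries per time point, members with few counts, such as TRIM9, TRIM17, TRIM71, TRIM73 and TRIM74, carry the widest intervals.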

Other observations

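Several TRIM genes lie beside each other, and neighbours did not always move alike. On hg19 TRIM11 (chr1:228581374-228594541) and TRIM17 (chr1:228595641-228604562) adjoin. TRIM11 gave 816 and 887 normalized counts at 6 h and 994 and 1049 at 24 h, and its log2 fold change was 0.26, while that of TRIM17 was -1.48. TRIM41 (chr5:180649499-180662809) and TRIM52 (chr5:180681417-180688119) had log2 fold changes of -0.50 and -0.64, while TRIM7 in the same stretch (chr5:180620924-180632293) had 0.06 (95% interval -0.13 to 0.25). On the short arm of chromosome 6 TRIM38 rose by 1.08 on the log2 scale, TRIM27 by 0.41 and TRIM26 by 0.32, and TRIM39 had -0.18, while TRIM10, TRIM15 and TRIM40 had no count. These differences between neighbours were not tested.

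The read-through genes TRIM6-TRIM34 and TRIM39-RPP21 and the interferon-linked TRIM34 were at 0 counts in all 4 libraries. The annotated exons of each read-through gene lie wholly within those of other genes (100%), and those of TRIM34 do so for 83.6% of their length. TRIM6, which shares a read-through with TRIM34, gave 235 and 187 normalized counts at 6 h and 196 and 168 at 24 h, with overlap. Of the 73 TRIM genes, 21 share part of their hg19 span with another gene of the table, as do 15 of the 48 tested.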
